A study of Mus musculus with 11 samples.

Results

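The MHC class I antigen presentation genes examined here are 10 genes chosen by symbol: B2m, H2-K1, H2-D1, H2-Q7, Tap1, Tap2, Tapbp, Psmb8, Psmb9 and Nlrc5. All 10 were found among the 55536 genes of the count files, and all 10 passed the low-count filter, which kept 20307 genes. Their transcripts were counted in 11 bulk RNA-seq libraries of cells sorted from the dorsal skin epidermis of male CD4Cre R26-tdT mice on the C57Bl6/N background. In this lineage-tracing line Cre is driven by the CD4 promoter and switches on the tdTomato reporter (tdT), so that a cell with a past or present CD4-driven Cre, and its progeny, stays marked. T cells of the CD4 and CD8 lineages pass through a CD4-expressing stage and are labelled by such a Cre as well.

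All 4 groups carried the Cre and the reporter and came from the CD49f+CD34+ gate, and each library pooled 2 mice. The Sca-1neg tdT+ group, the Sca-1neg tdT- group and the Sca-1+ tdT+ group had 3 libraries each, and the Sca-1+ tdT- group had 2. The mice were 29 weeks old for replicate 1 in each group and 32 weeks old for the rest. CD49f is an integrin chain that anchors basal keratinocytes, CD34 marks stem cells of the hair follicle bulge, and Sca-1 marks keratinocytes of the interfollicular epidermis and the upper follicle. Basal keratinocyte markers summed to between 16919 and 38469 CPM (counts scaled to a common library size, with TMM factors) in every library. Cd34 itself stood at 468 to 1130 CPM over the Sca-1neg libraries, at 320 and 383 CPM in Sca-1+ tdT- and at 22.3 to 35.7 CPM in Sca-1+ tdT+, the lowest of the 4 groups although all came from a CD34+ gate. The sum of 6 bulge markers ran from 7933 to 14653 CPM over the Sca-1neg and from 3319 to 5419 CPM over the Sca-1+ libraries.

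MHC class I molecules show peptides from inside the cell to CD8 T cells. The proteasome cuts proteins into peptides, the TAP transporter carries them into the endoplasmic reticulum, and tapasin helps load them onto a heavy chain paired with beta-2 microglobulin. Interferon exchanges 3 catalytic subunits of the proteasome for inducible ones, among them Psmb8 and Psmb9, and the transactivator NLRC5 drives the class I promoters. Nearly all nucleated cells carry class I, but the hair follicle bulge and bulb have been described as sites of relative immune privilege with low class I.

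Class I promoters share a compact block of elements on which NLRC5 acts with RFX, CREB/ATF and NF-Y proteins, and upstream of it an element bound by NF-kB and one bound by interferon regulatory factors. The 250 bases before the RefSeq transcription start (GRCm38.p6) are shown for B2m, H2-K1 and H2-Q7, because they hold the same pair of motifs near the start in the light chain, a classical heavy chain and a non-classical heavy chain. Each reads 5′ to 3′ along its gene, with the motif letters in capitals. The first capitals of B2m are GAAA-NN-GAAA followed by the reverse strand of the NF-kB consensus. In both heavy chain genes the NF-kB consensus comes first and is followed by the reverse strand of GAA-NN-GAAA. The last pair of capitals in each is TGACG, the core of the X2 box bound by CREB and ATF factors, and ATTGG, the reverse CCAAT core of the Y box bound by NF-Y.
B2m, chr2:122147437-122147686, plus strand: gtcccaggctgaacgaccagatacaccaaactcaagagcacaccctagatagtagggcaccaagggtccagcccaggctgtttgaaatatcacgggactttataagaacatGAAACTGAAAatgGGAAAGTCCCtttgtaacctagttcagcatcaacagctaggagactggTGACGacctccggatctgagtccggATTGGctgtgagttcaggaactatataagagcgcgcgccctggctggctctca
H2-K1, chr17:34000348-34000597, minus strand: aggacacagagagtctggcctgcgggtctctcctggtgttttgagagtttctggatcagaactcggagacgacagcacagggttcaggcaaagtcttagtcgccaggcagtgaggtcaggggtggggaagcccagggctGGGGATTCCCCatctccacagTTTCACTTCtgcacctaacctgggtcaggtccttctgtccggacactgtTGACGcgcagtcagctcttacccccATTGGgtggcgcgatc
H2-Q7, chr17:35438905-35439154, plus strand: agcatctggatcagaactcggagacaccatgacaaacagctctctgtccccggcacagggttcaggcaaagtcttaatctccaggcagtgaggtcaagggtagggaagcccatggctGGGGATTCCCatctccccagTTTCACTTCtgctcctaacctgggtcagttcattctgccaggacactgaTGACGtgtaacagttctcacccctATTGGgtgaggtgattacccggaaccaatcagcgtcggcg

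Promoter entries were found for 8 of the 10 genes, all but Tap2 and Nlrc5. TGACG followed after 15 to 25 bases by ATTGG, searched on both strands, was found in B2m, H2-K1, H2-D1 and H2-Q7, that is in 4 of the 8, against 0.381% of all 32851 promoter windows of that length. In B2m, H2-K1 and H2-D1 the block from TGACG to ATTGG spanned 30 bases and in H2-Q7 29. The NF-kB consensus was found in the same 4 genes and in 3.9% of all windows. GAA-NN-GAAA was found in H2-K1, H2-D1 and H2-Q7 and in 6.31% of all windows, and GAAA-NN-GAAA in B2m and in 2.98%. TTC-NNN-GAA, also searched, was found in Psmb8 and in 7.02%. Tap1, Tapbp and Psmb9 held none of these motifs. Counted by gene, over 27025 genes, the shares were 0.429%, 4.46%, 7.3%, 3.46% and 8.13% in the order given. These matches describe letters in the windows and are not measured binding sites.

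In the mm10 build with GENCODE M21 all 10 are protein-coding genes, and 8 of them lie in the MHC on chromosome 17. Tapbp lies at 33915899 to 33929292, H2-K1 at 33996017 to 34000347, Psmb9 at 34181987 to 34187764 and Tap1 at 34187553 to 34197225. Psmb8 lies at 34197721 to 34201454, Tap2 at 34203527 to 34216321, H2-D1 at 35262730 to 35267499 and H2-Q7 at 35439155 to 35443773. B2m lies on chromosome 2 at 122147686 to 122153083 and Nlrc5 on chromosome 8 at 94434356 to 94527272. Reads of the heavy chain genes may be split between near-identical copies: 26.5% of the 50-base windows of the H2-Q7 transcripts also occur in another gene, 14% in H2-Q10 alone, against 12.8% for H2-D1, 9.63% for H2-K1 and 0% for B2m. Tap1 and Psmb9 share 212 exon bases on opposite strands. Antisense genes cover 24.9% of the exon bases of Tapbp (Gm19412), 14.7% of those of Psmb8 (Gm20496) and 14.1% of those of Tap2 (Gm15821). The strand setting of the counting is not given in the sources used here, so such reads cannot be told apart, and the values of these genes carry that uncertainty.

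Total counts ran from 17409131 to 46542177 per library. The 1 additional entry of the count files, which carries a protein accession in place of a gene identifier and was taken as the tdT tracer, stood at 133 to 307 CPM in 5 of the 6 libraries labelled tdT+ and at 2.54 to 4.89 CPM in the 5 tdT- libraries. It stood at 2.05 CPM in 1 library labelled tdT+, replicate 2 of Sca-1neg (exact Clopper-Pearson 95% interval 1.44 to 2.83, counting error only), which goes against its label and is called the tracer-discordant library here. Liver transcripts made up 1.91% of counts in Sca-1neg tdT+ replicate 1, 1.07% in the one labelled replicate 2 of that group and 1.25% in Sca-1neg tdT- replicate 2, and at most 0.00791% in the other libraries. Results without the 3 libraries, and without the one whose tracer goes against its label, are given for the class I genes and for the called genes of the other lists. For the class I genes they are given as counts of calls, medians or values of single genes.

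The 10 genes were expressed in every library, and together they took between 0.329% and 0.727% of the scaled counts. Per length, B2m, the light chain of all class I molecules, was the most abundant, at 907 to 2743 FPKM, which is CPM per kilobase of exon. It ranked between the 99.8th and the 100th percentile of the tested genes. The classical heavy chains followed, with H2-K1 at 336 to 735 FPKM and H2-D1 at 272 to 608 FPKM. The remaining genes were lower. H2-Q7 stood at 20.6 to 87.3 FPKM, Tap1 at 20.9 to 68.8, Tapbp at 29.8 to 50.8, Tap2 at 14.6 to 31.9, Nlrc5 at 8.09 to 46.5, Psmb8 at 8.41 to 32.0 and Psmb9 at 8.59 to 28.3. The ratio of the summed FPKM of H2-K1, H2-D1 and H2-Q7 to that of B2m ran from 0.440 to 0.862 over the libraries, and that of H2-K1 to H2-D1 from 1.05 to 1.29.

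**Figure D1:**
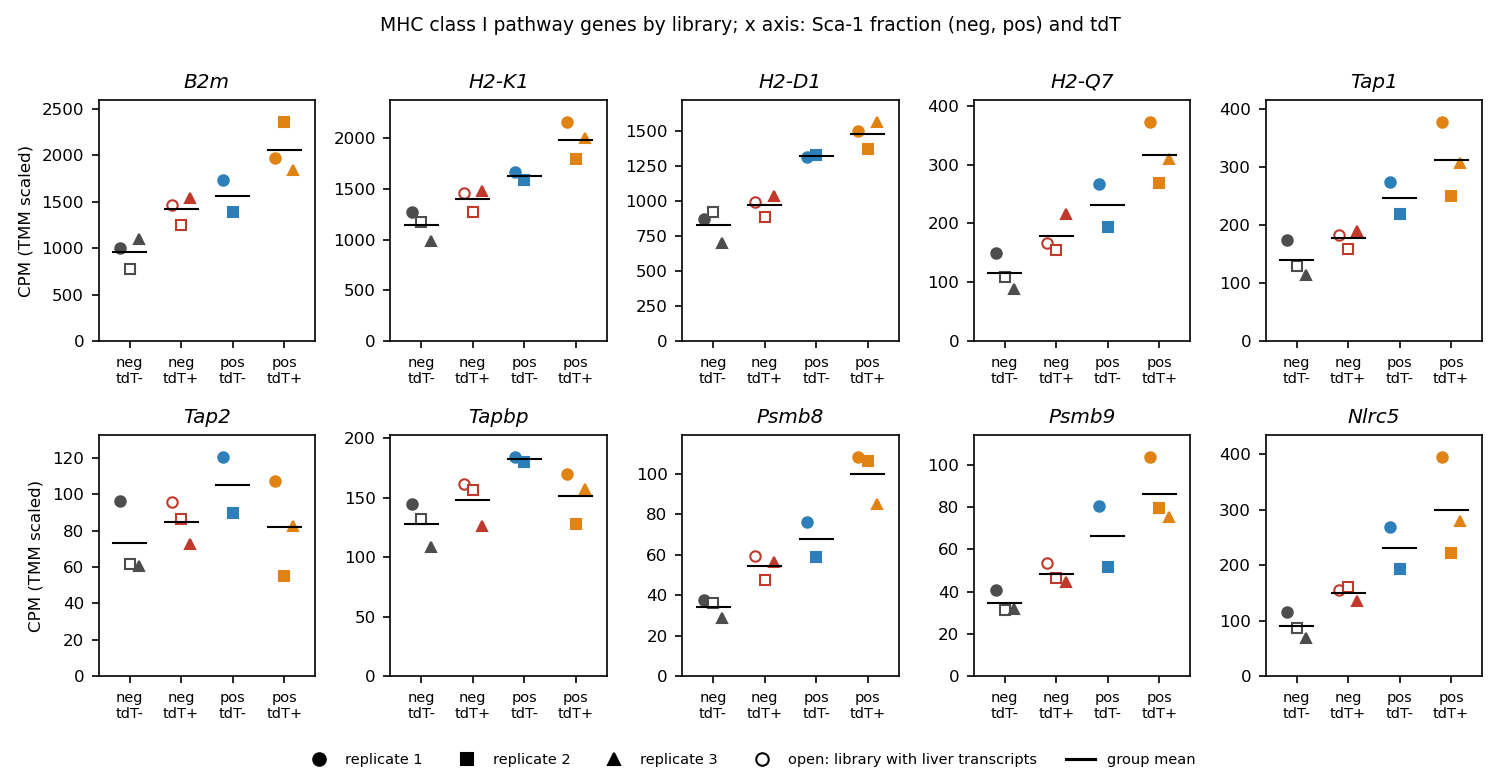
Level of each of the 10 genes (CPM scaled by TMM, axis from 0) in the 11 libraries, by Sca-1 fraction (neg or pos) and tdT. Points are libraries, open points mark the 3 libraries with liver transcripts, and lines are group means. In 8 of the 10 panels the means ascend from Sca-1neg tdT- through Sca-1neg tdT+ and Sca-1+ tdT- to Sca-1+ tdT+, and Tap2 and Tapbp are highest in Sca-1+ tdT-.

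For 8 of the 10 genes the group means had 1 order: highest in Sca-1+ tdT+, then Sca-1+ tdT-, Sca-1neg tdT+ and Sca-1neg tdT-. The exceptions were Tap2 and Tapbp, which were highest in Sca-1+ tdT-. Neighbours in this order did not all separate. Of these 8 genes, the libraries of Sca-1+ tdT- and Sca-1neg tdT+ overlapped for B2m, H2-Q7, Psmb8 and Psmb9, those of the 2 Sca-1+ groups overlapped for Tap1, Psmb9 and Nlrc5, and those of the 2 Sca-1neg groups overlapped for H2-D1 and Tap1. No 2 neighbouring groups overlapped for H2-K1. All neighbours overlapped for Tap2, and for Tapbp all but Sca-1+ tdT-, which lay above the rest. In bulk samples such as these, fewer cells of a type and less RNA per cell cannot be told apart.

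Setting the Sca-1+ against the Sca-1neg libraries asks how class I expression differs between the Sca-1neg cells, richer in bulge markers, and the Sca-1+ cells of the same gate. Among tdT- cells, 5 of the 10 genes were higher in Sca-1+ and none was lower: Nlrc5, Psmb8, H2-Q7, Psmb9 and H2-D1. Over all genes tested 5.74% were called in this comparison, 3.68% as higher. Among the more abundant genes, with at least 10 CPM in 2 libraries, 12.5% were called in either direction, and 7 of the 10. The median log2 fold change of the 10 genes was 0.76, beside -0.13 over all genes. Among tdT+ cells, 6 of the 10 were higher and none lower: the same 5 and Tap1. Over all genes 12.7% were called there, 5.94% as higher, and the medians were 0.71 for the 10 genes and -0.07 for all genes. With at least 10 CPM in 2 libraries 21.3% of genes were called in either direction, and 6 of the 10.

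Values are given by role, the presented complex first. B2m stood at 998, 780 and 1102 CPM in Sca-1neg tdT- and at 1739 and 1386 CPM in Sca-1+ tdT-. In tdT+ cells it stood at 1461, 1249 and 1544 CPM for Sca-1neg and at 1975, 2359 and 1839 CPM in Sca-1+. The fractions did not overlap in either tdT class. The log2 fold changes, 0.70 ± 0.205 (SE; adjusted p = 0.0718 by the quasi-likelihood test of edgeR) in tdT- and 0.54 ± 0.186 (adjusted p = 0.0844) in tdT+, did not pass the threshold of 0.05.

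H2-D1, a classical heavy chain, was at 874, 921 and 702 CPM in Sca-1neg tdT- and at 1317 and 1333 CPM in Sca-1+ tdT-. In tdT+ cells it was at 993, 890 and 1041 CPM in Sca-1neg and at 1502, 1372 and 1568 CPM in Sca-1+. Every Sca-1+ library lay above every Sca-1neg library. H2-D1 was higher in Sca-1+ by a log2 fold change of 0.67 ± 0.169 (adjusted p = 0.0425) in tdT- and of 0.60 ± 0.153 (adjusted p = 0.0269) in tdT+. H2-K1, the other classical heavy chain, was at 1272, 1172 and 986 CPM in Sca-1neg tdT- and at 1667 and 1588 CPM in Sca-1+ tdT-. In tdT+ cells it was at 1457, 1274 and 1476 CPM in Sca-1neg and at 2160, 1798 and 2001 CPM in Sca-1+. Its fractions did not overlap either, but its log2 fold changes, 0.51 ± 0.172 (adjusted p = 0.116) in tdT- and 0.50 ± 0.156 (adjusted p = 0.058) in tdT+, missed the threshold.

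H2-Q7 encodes a non-classical heavy chain of the Qa-2 group. It was at 150, 109 and 88.1 CPM in Sca-1neg tdT- and at 267 and 194 CPM in Sca-1+ tdT-, and its log2 fold change there was 0.997 ± 0.25 (adjusted p = 0.0419). In tdT+ cells it was at 167, 154 and 216 CPM in Sca-1neg and at 373, 269 and 309 CPM in Sca-1+, a log2 fold change of 0.82 ± 0.228 (adjusted p = 0.0386). H2-Q7 was thus higher in every Sca-1+ library than in the Sca-1neg libraries of the same tdT class. H2-Q10, a class I gene known for its expression in liver, was at 228, 106 and 169 CPM in the 3 libraries with liver transcripts and at most at 1.70 CPM in the other 8. H2-Q7, which shares windows with it, was at 167, 154 and 109 CPM in those 3 libraries, inside the range of the other Sca-1neg libraries.

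Tap1 and Tap2 encode the subunits of the peptide transporter. Tap1 was at 174, 129 and 114 CPM in Sca-1neg tdT- and at 274 and 219 CPM in Sca-1+ tdT-, with a log2 fold change of 0.82 ± 0.22 (adjusted p = 0.0537). In tdT+ cells Tap1 was at 183, 159 and 190 CPM in Sca-1neg and at 377, 249 and 307 CPM in Sca-1+, and it was higher by a log2 fold change of 0.81 ± 0.201 (adjusted p = 0.0238). Tap1 did not overlap between fractions in either class.

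Tap2 was at 96.3, 61.9 and 60.8 CPM in Sca-1neg tdT- and at 121 and 89.7 CPM in Sca-1+ tdT-. In tdT+ cells Tap2 was at 95.8, 86.4 and 72.6 CPM in Sca-1neg and at 108, 55.2 and 82.5 CPM in Sca-1+. The groups overlapped in both comparisons, with log2 fold changes of 0.53 ± 0.285 (adjusted p = 0.331) and -0.05 ± 0.257 (adjusted p = 0.911, 95% interval -0.62 to 0.51). Tapbp, the gene of tapasin, was at 145, 132 and 108 CPM in Sca-1neg tdT- and at 184 and 180 CPM in Sca-1+ tdT-, a log2 fold change of 0.51 ± 0.179 (adjusted p = 0.132). In tdT+ cells Tapbp was at 162, 156 and 126 CPM in Sca-1neg and at 170, 128 and 158 CPM in Sca-1+. Those groups overlapped, and the log2 fold change of 0.04 ± 0.162 (adjusted p = 0.903) had a 95% interval of -0.32 to 0.39 and changed sign, to -0.0020, with the size factors of DESeq2.

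Psmb8 and Psmb9 encode inducible proteasome subunits. Psmb8 was at 37.3, 36.0 and 28.4 CPM in Sca-1neg tdT- and at 76.4 and 58.7 CPM in Sca-1+ tdT-, a log2 fold change of 0.99 ± 0.187 (adjusted p = 0.0133). In tdT+ cells Psmb8 was at 59.1, 47.4 and 56.4 CPM in Sca-1neg and at 108, 106 and 84.9 CPM in Sca-1+, a log2 fold change of 0.88 ± 0.17 (adjusted p = 0.00753). Psmb8 had the lowest adjusted p of the 10 genes in both comparisons, and its fractions did not overlap. Psmb9 was at 41.0, 31.4 and 31.7 CPM in Sca-1neg tdT- and at 80.7 and 51.6 CPM in Sca-1+ tdT-, a log2 fold change of 0.93 ± 0.22 (adjusted p = 0.0333). In tdT+ cells Psmb9 was at 53.5, 46.4 and 44.6 CPM in Sca-1neg and at 104, 79.7 and 75.1 CPM in Sca-1+, a log2 fold change of 0.84 ± 0.201 (adjusted p = 0.0202). Here too every Sca-1+ library lay above the Sca-1neg libraries of its class.

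Nlrc5, the transactivator gene, had the largest fold changes of the 10. It was at 116, 85.7 and 68.7 CPM in Sca-1neg tdT- and at 269 and 193 CPM in Sca-1+ tdT-, a log2 fold change of 1.36 ± 0.268 (adjusted p = 0.0163), or 2.56-fold. In tdT+ cells Nlrc5 was at 155, 160 and 135 CPM in Sca-1neg and at 395, 222 and 280 CPM in Sca-1+, a log2 fold change of 0.996 ± 0.246 (adjusted p = 0.0234), or 1.99-fold. The fractions did not overlap in either class.

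At an unadjusted p under 0.05 there were 9 of the 10 genes in tdT-, against 20.5% of all genes, and 8 in tdT+, against 29.9%. Counted by library, 9 did not overlap in tdT- with Sca-1+ higher, against 19.9% of all genes, and 8 in tdT+, against 15.4% of all genes. The calls depended on single libraries. In tdT- the 5 calls fell to 0 without Sca-1neg tdT- replicate 3, where the share called over all genes fell as well, from 5.74% to 1.5%. They fell to 0 without Sca-1+ tdT- replicate 1 (0.486% of all genes) and to 2 without Sca-1neg tdT- replicate 2 (4.49%). They fell to 3 without Sca-1neg tdT+ replicate 1, Sca-1+ tdT+ replicate 1, Sca-1+ tdT+ replicate 3 or Sca-1+ tdT- replicate 2 (2.02% to 5.62% of all genes). With the tracer-discordant library left out 4 remained (6.46% of all genes), and the call of H2-D1 was lost (adjusted p = 0.052). In tdT+ the 6 calls fell to 1 (Psmb8) when the library labelled Sca-1neg tdT+ replicate 2 was left out (10.4% of all genes), to 1 (Psmb8 again) without Sca-1+ tdT+ replicate 1 (9.24%), and to 2 without Sca-1neg tdT+ replicate 1 (7.91%) or Sca-1+ tdT+ replicate 3 (8.62%). When the 3 libraries with liver transcripts were left out, 3 were called in tdT- (H2-D1, Nlrc5 and Psmb8) and 0 in tdT+, where over all genes 9.65% and 10.3% were called. In that fit Sca-1neg tdT+ kept 1 library, whose spread was taken from the remaining groups. The tdT+ log2 fold changes were then 1.13 for Nlrc5, 0.93 for Psmb9, 0.81 for Psmb8, 0.69 for Tap1, 0.53 for H2-Q7 and 0.49 for H2-D1. With the tracer-discordant library left out they were 1.04, 0.81, 0.79, 0.74, 0.72 and 0.54 in the same order.

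**Figure D2:**
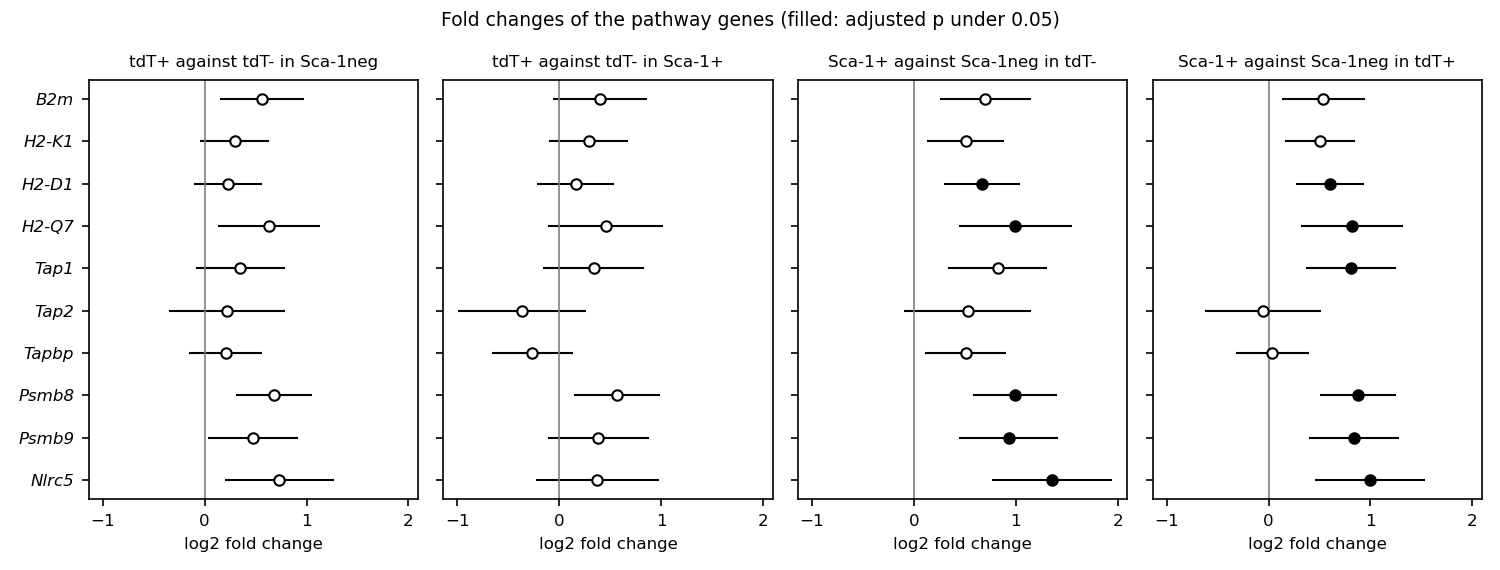
Log2 fold change of each of the 10 genes in the 4 comparisons, with 95% intervals as bars. Filled points passed an adjusted p of 0.05 (edgeR, over all genes tested): 5 genes for Sca-1+ against Sca-1neg in tdT-, 6 in tdT+, and none for tdT+ against tdT- in either fraction.

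The comparison of tdT+ with tdT- cells asks whether the traced cells of a fraction differ from the untraced ones. In the Sca-1neg fraction none of the 10 genes passed the threshold, and over all genes 13 did, or 0.064%. All 10 log2 fold changes were above 0, with a median of 0.41 beside -0.03 over all genes. At an unadjusted p under 0.05 there were 5 (Psmb8, B2m, Nlrc5, H2-Q7 and Psmb9), against 8.33% of all genes, and DESeq2 called 2, B2m (adjusted p = 0.028) and Psmb8 (adjusted p = 0.011), where it called 2.3% of all genes. Psmb8 had a log2 fold change of 0.68 ± 0.17 (adjusted p = 0.243), Nlrc5 of 0.73 ± 0.245 (adjusted p = 0.443), H2-Q7 of 0.63 ± 0.228 (adjusted p = 0.497) and B2m of 0.56 ± 0.186 (adjusted p = 0.44). The tdT+ libraries lay above all tdT- libraries for B2m, H2-K1, H2-Q7, Psmb8, Psmb9 and Nlrc5, that is for 6 of 10, against 5.07% of all genes. The library labelled Sca-1neg tdT+ replicate 2, with its tracer at the tdT- level, was among those above, with 1249 CPM of B2m and 160 CPM of Nlrc5. Without this library the log2 fold changes were 0.77 for Psmb8, 0.68 for Nlrc5, 0.73 for H2-Q7 and 0.65 for B2m, and none passed. Without the 3 libraries with liver transcripts they were 0.78, 0.55, 0.86 and 0.56 in the same order, Tap2 and Tapbp turned to -0.11 and -0.0047, and none passed.

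In the Sca-1+ fraction none of the 10 genes passed, against 2.74% of all genes, and 1 had an unadjusted p under 0.05, against 14.5%. That gene was Psmb8, with a log2 fold change of 0.56 ± 0.192 (adjusted p = 0.186). The median of the 10 was 0.35 beside 0.04 over all genes. Leaving out 1 library of Sca-1+ tdT- moved it to 0.53 (replicate 1) or 0.13 (replicate 2), and leaving out the first of Sca-1+ tdT+ moved it to 0.20. The median was 0.35 with the tracer-discordant library left out and 0.29 without the libraries with liver transcripts. The 2 log2 fold changes below 0 were those of Tap2 (-0.36 ± 0.285, adjusted p = 0.654) and Tapbp (-0.26 ± 0.18, adjusted p = 0.583). For Tapbp both tdT- libraries, at 184 and 180 CPM, lay above the tdT+ libraries at 170, 128 and 158 CPM, and 17.2% of all genes had this pattern. B2m, H2-K1, H2-D1, H2-Q7 and Psmb8 did not overlap in the other direction, against 15.8% of all genes.

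The interaction, that is how far the tdT effect in Sca-1+ departed from that in Sca-1neg, passed for none of the 10 genes, against 0.483% of all genes, and none had an unadjusted p under 0.05, against 12.2%. All 10 estimates were below 0, that is, the tdT effect was estimated lower in Sca-1+, but the sign was not stable. H2-K1 was at 0.00077 when libraries were scaled by their totals alone, and 7 of the 10 genes, all but Tap2, Tapbp and Nlrc5, changed sign in at least 1 alternative. Without Sca-1+ tdT- replicate 1, 6 of the 10 were above 0 and the median moved from -0.14 to 0.03. It was -0.23 with the tracer-discordant library left out and -0.26 without the libraries with liver transcripts. The furthest from 0 were Tap2, at -0.58 (95% interval -1.43 to 0.27), and Tapbp, at -0.47 (-1.003 to 0.06). The closest was H2-K1, at -0.0066 (-0.52 to 0.51). Missing the threshold does not show that the tdT effect was equal in the fractions.

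Ratios within a library set the inducible proteasome subunits against the constitutive ones whose place they take, as ratios of FPKM and without a test. Psmb8 to Psmb5 was 0.563, 0.398 and 0.326 in Sca-1neg tdT- and 0.573, 0.787 and 0.768 in Sca-1neg tdT+. In Sca-1+ it was 1.24 and 0.732 for the tdT- libraries and 1.14, 0.722 and 0.882 for the tdT+ libraries, so that Sca-1neg tdT- lay below every other library. Psmb9 to Psmb6 was 0.263, 0.154 and 0.130 in Sca-1neg tdT-, 0.275, 0.265 and 0.204 in Sca-1neg tdT+, and in Sca-1+ 0.528 and 0.320 for the tdT- libraries and 0.698, 0.323 and 0.394 for the tdT+ libraries. All Sca-1+ libraries lay above all Sca-1neg libraries in this ratio. Psmb10 to Psmb7, the remaining pair, overlapped between the fractions, at 0.315 to 0.823 in Sca-1neg tdT-, 0.583 to 1.11 in Sca-1neg tdT+, 1.005 to 1.19 in Sca-1+ tdT- and 0.590 to 0.924 in Sca-1+ tdT+.

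**Figure D3:**
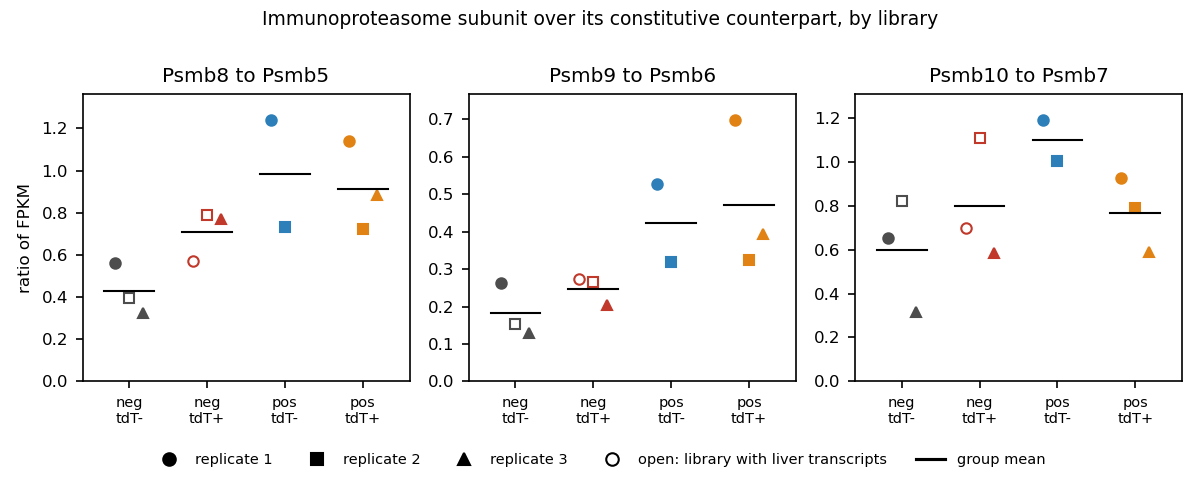
Ratio of FPKM of each inducible proteasome subunit to its constitutive counterpart in the 11 libraries (axes from 0), with group means as lines and open points for libraries with liver transcripts. Psmb9 to Psmb6 separates the fractions, at most 0.275 in Sca-1neg and at least 0.320 in Sca-1+, and Psmb10 to Psmb7 does not.

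The other genes of the pathway were taken from lists by function, chosen with earlier results of these data known. The counts for all lists below stand beside these shares called over all genes. Between fractions they were 5.74% in tdT- (3.68% as higher) and 12.7% in tdT+ (5.94% as higher). Between tdT+ and tdT- cells they were 0.064% in Sca-1neg and 2.74% in Sca-1+. Of 4 further immunoproteasome genes, 2 were higher in Sca-1+ among tdT+ cells, the subunits of the interferon-inducible proteasome activator: Psme1 by a log2 fold change of 0.46 ± 0.127 (adjusted p = 0.038) and Psme2 by 0.72 ± 0.186 (adjusted p = 0.029). Without the 3 libraries with liver transcripts neither passed (Psme1 0.60, adjusted p = 0.0995, and Psme2 0.59, adjusted p = 0.236), and with the tracer-discordant library left out Psme2 did not (0.695, adjusted p = 0.0758). None of the 4 passed among tdT- cells. None of the 4 constitutive proteasome genes and none of the 6 further peptide loading and trimming genes passed in any comparison. Calr, the gene of the chaperone calreticulin and the most abundant of the loading genes, had log2 fold changes between fractions of -0.05 ± 0.174 (adjusted p = 0.912) in tdT- and -0.19 ± 0.156 (adjusted p = 0.445) in tdT+.

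Of 13 other class I heavy chain and class I-like genes, 12 were tested. Among tdT- cells 1 was higher in Sca-1+: H2-T24, by a log2 fold change of 1.52 ± 0.383 (adjusted p = 0.0424). Among tdT+ cells H2-T10 was higher, by 0.87 ± 0.257 (adjusted p = 0.0497), and Mr1, which presents vitamin B metabolites to MAIT cells, was lower, at -0.87 ± 0.244 (adjusted p = 0.041). H2-T10 did not pass without the libraries with liver transcripts (0.66, adjusted p = 0.325) or with the tracer-discordant library left out (0.78, adjusted p = 0.129), and H2-T24 and Mr1 passed in both fits. The most abundant of them, H2-Q6, had log2 fold changes of 0.88 ± 0.311 (adjusted p = 0.132) and 0.35 ± 0.282 (adjusted p = 0.442). None passed between tdT+ and tdT- cells.

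Of 10 interferon receptor and signalling genes, 3 were higher in Sca-1+ among tdT- cells and 2 among tdT+ cells. Ifngr1, the ligand-binding chain of the interferon gamma receptor, was at 33.8, 27.3 and 27.2 CPM in Sca-1neg tdT- and at 126 and 90.6 CPM in Sca-1+ tdT-. In tdT+ cells Ifngr1 was at 48.1, 70.9 and 32.5 CPM in Sca-1neg and at 123, 109 and 152 CPM in Sca-1+. The fractions did not overlap, and Ifngr1 was higher by log2 fold changes of 1.88 ± 0.285 (adjusted p = 0.00593) and 1.34 ± 0.262 (adjusted p = 0.00772). Jak1, a kinase of that receptor, was higher by 0.84 ± 0.137 (adjusted p = 0.00821) and 0.69 ± 0.125 (adjusted p = 0.00519), and its partner Jak2 by 0.86 ± 0.209 (adjusted p = 0.037) among tdT- cells. Of these calls 1 was lost without the libraries with liver transcripts, that of Jak1 among tdT+ cells (0.69, adjusted p = 0.0558), and none when the tracer-discordant library was left out.

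Of 25 interferon-stimulated genes, 2 were higher in Sca-1+ among tdT- cells, against 3.68% of all genes. They were the guanylate-binding protein genes Gbp2 (2.52 ± 0.573, adjusted p = 0.0368) and Gbp4 (4.81 ± 1.11, adjusted p = 0.0434). All 25 estimates were above 0 among tdT- cells, with a median of 1.99. Among tdT+ cells 1 of the 25 was higher, against 5.94% of all genes: Oas1a (2.66 ± 0.715, adjusted p = 0.0341). There 15 of 25 estimates were above 0 and the median was 0.38. The calls of Gbp2, Gbp4 and Oas1a held with the tracer-discordant library left out, where Oas1a was at 3.48. Without the libraries with liver transcripts Gbp2 was at 2.54 and Gbp4 at 6.2 among tdT- cells. Oas1a was then at 4.90 among tdT+ cells, set against 1 Sca-1neg library, replicate 3, whose low sum is given below. The summed level of the 25 was 678 to 691 CPM in Sca-1+ tdT- and 357 to 391 CPM in Sca-1+ tdT+, the reverse of the order of the class I sums, which were 5293 to 5996 and 6638 to 7272 CPM. For Sca-1neg tdT- the interferon-stimulated and class I sums were 188 and 3904 CPM, 291 and 3458 CPM, and 121 and 3291 CPM, so that replicate 3 had the lowest value of its group in both. In Sca-1neg tdT+ replicate 3 the interferon-stimulated genes summed to 119 CPM, the lowest of the 11 libraries, and the class I genes to 4902 CPM, the highest of the 6 Sca-1neg libraries. The other libraries of that group had 597 and 4787 CPM (the first) and 435 and 4223 CPM (the second).

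Markers of other cell types also differed in summed level between the groups. The 10 endothelial markers summed to 2205 to 2341 CPM in Sca-1+ tdT-, 44.5 to 83.1 in Sca-1+ tdT+, 42.8 to 128 in Sca-1neg tdT- and 6.78 to 584 in Sca-1neg tdT+, where 584 was the value of the library labelled tdT+ replicate 2. None of the 10 passed between fractions, and 1 was lower in tdT+ in the Sca-1+ fraction. The 8 T cell markers summed to 242 to 736 CPM in Sca-1+ tdT+, 63.5 to 65.6 in Sca-1+ tdT-, 21.5 to 51.9 in Sca-1neg tdT+ and 5.83 to 6.55 in Sca-1neg tdT-. Of these 8, 7 were higher in Sca-1+ among tdT- cells and 8 among tdT+ cells, 1 was higher in tdT+ in the Sca-1neg fraction and 4 in the Sca-1+ fraction. The 6 Langerhans cell and class II markers summed to 647 to 689 CPM in Sca-1+ tdT-, 271 to 411 in Sca-1+ tdT+, 71.7 to 352 in Sca-1neg tdT+ and 17.1 to 76.4 in Sca-1neg tdT-, and 4 of them were higher in Sca-1+ among tdT- cells. The 7 pan-leukocyte markers summed to 7.73 to 45.5 CPM in Sca-1neg tdT- and to 333 to 607 CPM in Sca-1+ tdT+, with the other groups between. Of these 7, 3 were higher in Sca-1+ among tdT- cells and 2 among tdT+ cells, and 1 (Ikzf1) was higher in tdT+ in each fraction. No marker of these 4 lists was at 0 in any library, and the part of these cells in the class I differences was not tested. Macrophage markers summed to 4.74 to 741 CPM and fibroblast markers to 26.9 to 478 CPM over the libraries, and none of the 6 in either list passed in any comparison. Adgre1 was at 0 in Sca-1neg tdT+ replicate 3 and Lum in Sca-1+ tdT+ replicate 1. Of the 6 melanocyte markers 1 was lower in Sca-1+ in each tdT class, and their summed level ran from 93.5 to 159 CPM over the Sca-1neg libraries and from 15.4 to 57.1 over the Sca-1+ libraries. Of the 6 bulge markers, 3 were lower in Sca-1+ among tdT- cells and 6 among tdT+ cells. Of the 6 basal keratinocyte markers, 1 (Itga6) was higher in Sca-1+ among tdT- cells and 3 among tdT+ cells (Krt5, Krt14 and Itga6). Their sum was 31815 to 38469 CPM in Sca-1+ tdT+ and 16919 to 22575 CPM in Sca-1neg tdT+, beside 23069 to 26064 CPM in Sca-1+ tdT- and 24869 to 25461 CPM in Sca-1neg tdT-, and its part in the class I differences was not tested. Among the marker calls between fractions, those of Krt5 and Cd3g in tdT+ were lost without the libraries with liver transcripts. With the tracer-discordant library left out, those of Cd3g in both classes and of Krt5, Krt15 and Trdc in tdT+ were lost. So were those of Cd3e and Ikzf1 between tdT+ and tdT- in Sca-1neg. Of 7 genes induced by tissue dissociation none passed in any comparison, and their sum ran from 8023 to 13673 CPM.

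The lymphocyte receptors that bind class I were followed as a list of 4. Cd8a, a chain of the CD8 co-receptor, was at 27.6, 85.9 and 73.5 CPM in Sca-1+ tdT+ and at 1.45, 0.696 and 4.46 CPM in Sca-1neg tdT+, a log2 fold change of 4.82 ± 1.25 (adjusted p = 0.0419). In the 5 tdT- libraries Cd8a was at most at 2.18 CPM. Its call was lost without the libraries with liver transcripts (3.78, adjusted p = 0.179) and with the tracer-discordant library left out (4.401, adjusted p = 0.101). Klrd1, the CD94 chain of receptors for the non-classical Qa-1, was higher in Sca-1+ by 4.23 ± 0.85 (adjusted p = 0.018) among tdT- cells and by 3.398 ± 0.758 (adjusted p = 0.0151) among tdT+ cells. The second call was lost with the tracer-discordant library left out (3.38, adjusted p = 0.052).

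**Figure D4:**
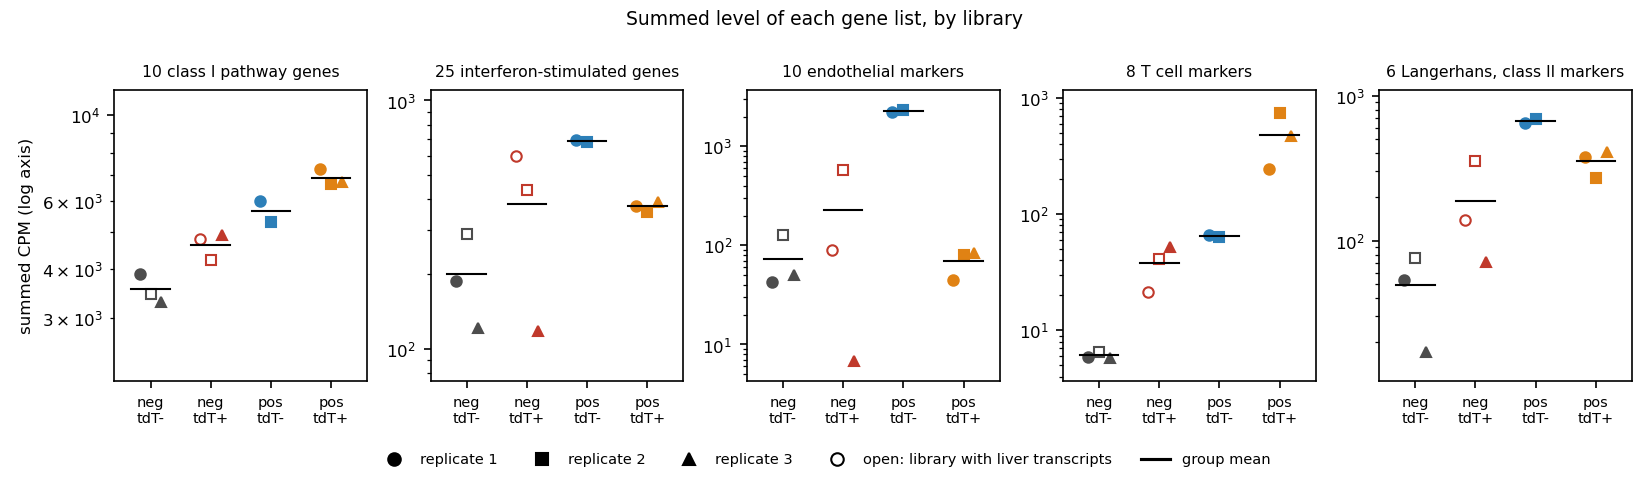
Summed CPM (log axes) of the 10 class I genes and of 4 other lists in the 11 libraries, with group means as lines and open points for libraries with liver transcripts. The class I sum spans 3291 to 7272 CPM, the endothelial sum 6.78 to 2341 CPM and the T cell sum 5.83 to 736 CPM.

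Within the groups, the libraries differed by up to 0.51 below and 0.45 above the group mean on the log2 scale, both for Tap2 in Sca-1+ tdT+. Nlrc5 and Tap1 had a similar spread in that group, with replicate 1 at 0.44 and 0.30 above the mean and replicate 2 at 0.39 and 0.30 below it. H2-K1 and H2-D1 stayed within 0.24 of their group means in all libraries. Replicate 1, from mice of 29 weeks, had the highest level in all 4 groups for Tap2, Tapbp, Psmb8 and Psmb9, that is for 4 of 10, against 2.7% of all genes.

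The labels put 1 library of 29 weeks in each group, which allowed a comparison of ages within groups, added after these values were seen. All 10 estimates were higher at 29 weeks, with a median log2 difference of 0.28 beside 0.0047 over all genes. None passed the threshold (adjusted p = 0.999 for each), as was so for all genes (0%), and 4 had an unadjusted p under 0.05, against 3.27% of all genes. The 4 were Psmb9, at 0.40 ± 0.0964, Tap2, at 0.51 ± 0.129, Nlrc5, at 0.45 ± 0.134, and Tap1, at 0.34 ± 0.118. Without the libraries with liver transcripts, 1 of which was of 29 weeks, the median was 0.39 and none of the 10 passed. The library of 29 weeks was also the deepest of its group, so age, depth and preparation cannot be told apart.

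**Figure D5:**
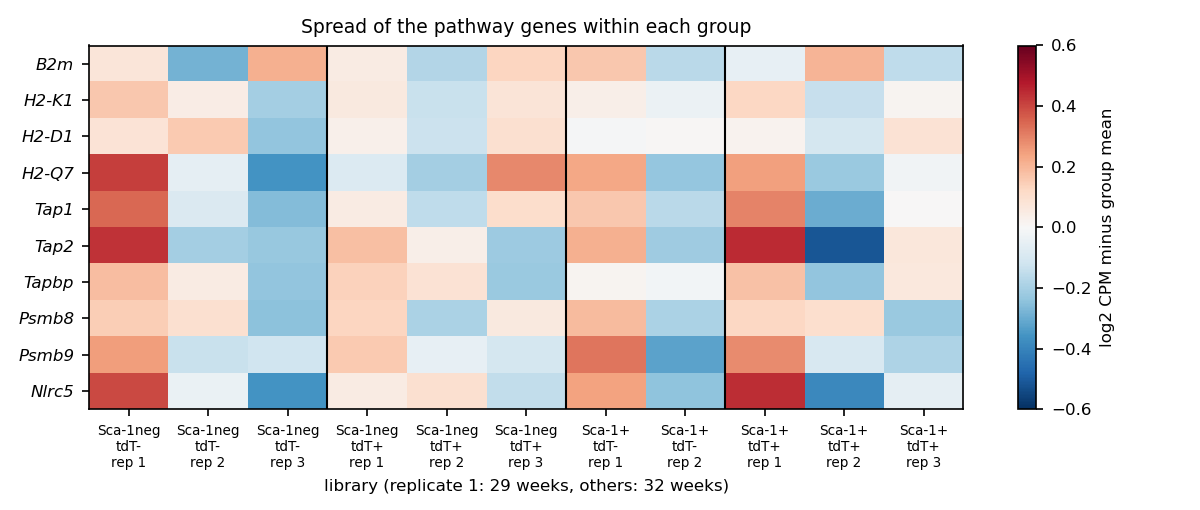
Log2 CPM of each of the 10 genes minus the mean of its group, as colour, in the 11 libraries. Values run from -0.51 to 0.45, and both ends are Tap2 in Sca-1+ tdT+, in replicates 2 and 1.

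The genes outside the list whose standardised log2 CPM over the 11 libraries lay closest to the mean of the 10 class I genes were Stap2, Pnpla1, Lrrc1, Sectm1a, Nat8l and Slc12a2. Their root-mean-square differences from that mean ran from 0.196 for Stap2 to 0.254 for Slc12a2. Of the 10 genes themselves, Nlrc5 (0.122) and Tap1 (0.172) were closest to their own mean, and B2m ranked 578, Tapbp 1434 and Tap2 2651 in this order of likeness. Stap2, which encodes a signalling adaptor, was at 51.1, 40.5 and 40.9 CPM in Sca-1neg tdT- and at 74.3, 73.6 and 62.1 in Sca-1neg tdT+. Its Sca-1+ values were 103 and 80.9 CPM without and 124, 86.7 and 101 CPM with the tracer. These genes were picked for this likeness among all genes with a mean of at least 5 CPM, over libraries that share their groups, and their levels are a description.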

How the data were processed

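RNA of sorted cells was extracted with Trizol and sequenced from TruSeq RNA v2 libraries, per the labels. The authors deposited raw gene counts. The submitters' processing notes name bcl2fastq 2.20.0.422, FastQC, STAR, featureCounts, DESeq2 1.18.1 and mm10. How strand and multiply mapped reads were treated in counting, and with which annotation, is not given in the sources used here.

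Ensembl identifiers were matched to GENCODE M21 symbols (55450 of 55536). Counts of the 11 libraries were fitted with edgeR 4.0.16 (R 4.3.3): low-count filter by group, TMM scaling, 4 group means and a robust quasi-likelihood test with 7 residual degrees of freedom. P-values were adjusted by Benjamini-Hochberg over 20307 genes, with a threshold of 0.05. CPM and FPKM (exon union length) were computed here. The labels do not say which libraries share mice, so p-values measure only the spread between these libraries, which may be technical. The fit was tested on simulated data of 20307 genes, with 100 changed 2-fold and 100 changed 4-fold in a comparison. Between the fractions of the data themselves 1166 (tdT-) and 2572 (tdT+) genes were called, so recovery there may differ. Of 100 genes changed 2-fold the fit recovered 9 for tdT+ against tdT- in Sca-1neg and 1 in Sca-1+. For Sca-1+ against Sca-1neg it recovered 2 in tdT- and 10 in tdT+. Of 100 genes changed 4-fold it recovered 73, 55, 45 and 66 in the same order. Alternatives were DESeq2 1.42.0, other scalings, filters, covariates and sample sets, and each library left out in turn.

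The 10 genes and all lists were chosen with earlier results of these data known. From each pathway list the text names up to 4 genes past the threshold with the lowest p, and otherwise draws on the 2 most abundant. Of genes alike in pattern it names 6 with a mean of at least 5 CPM. The comparison of ages was added after values were seen. The list of class I transcription regulators is not reported here. The other lists' called genes were refitted without the libraries that stand apart, an alternative chosen after seeing the data.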

Additional observations from a re-analysis of the deposited data

How the results depend on the processing

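Over 20 alternatives (19 for the difference of the tdT effect), 880 of 990 single-gene results kept their direction and side of the threshold, 61 lost and 18 gained significance, and 31 changed sign, none of them called. Only genes called at first could lose a call. In tdT- H2-D1 was called in 7 of 20 alternatives, H2-Q7 in 10, Psmb9 in 15, and Psmb8 and Nlrc5 in 18 each. In tdT+ the called genes ran from 13 (H2-D1) to 19 (Psmb8) of 20. For Sca-1+ against Sca-1neg in tdT-, the 5 genes called became 9 with DESeq2 (17.7% of all genes called, beside 5.74%), 3 with library size alone (4.8%), 3 without the libraries with liver transcripts (9.65%), 2 with only the groups being compared (10.5%), and 0 to 6 when 1 library was left out. In tdT+ the 6 became 0 without the libraries with liver transcripts (10.3%, beside 12.7%) and 1 to 6 when 1 library was left out. Psmb8 passed in tdT+ in all 11 fits that left out 1 library, and H2-D1 lost its tdT- call in 9 of them. Over those fits the share of all genes called ran from 0.486% to 8.18% in tdT- and from 7.91% to 15.4% in tdT+. For tdT+ against tdT- in Sca-1neg DESeq2 called 2 (2.3%, beside 0.064%). The cause was not tested.

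Whether the replicate numbers pair the libraries could not be settled. Of the same-numbered pairs, 9 of 15 correlated above 0.1 (-0.405 to 0.614), and the differently numbered pairs ran from -0.597 to 0.619. With a replicate block 5 genes were called in tdT- (5.06% of all genes) and 6 in tdT+ (12.7%). In tdT-, however, H2-D1 lost its call (adjusted p = 0.0723) and Tap1 gained one (adjusted p = 0.0331), as with age as a factor (0.0628 and 0.0315). In the difference H2-K1 changed sign, to 0.0058, with the block.

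Without the libraries with liver transcripts, Tap2 (-0.11) and Tapbp (-0.0047) changed in the Sca-1neg tdT comparison, Tap2 (0.16) in tdT+ between fractions and Psmb9 (0.018) in the difference. Tapbp in tdT+ was -0.0026 with DESeq2, -0.0020 with its size factors, -0.022 without the low-count filter, -0.029 with at least 10 CPM in 2 libraries, and -0.067 to 0.12 in the fits that left out 1 library, where Tap2 was -0.30 to 0.14. In the difference, library size alone gave 0.00077 for H2-K1, and age as a factor gave 0.012 for H2-K1 and 0.014 for Tap1. Leaving out 1 library there gave -0.091 to 0.089 for H2-K1, -0.21 to 0.17 for Tap1, -0.41 to 0.28 for Psmb9, -0.32 to 0.10 for Psmb8, -0.42 to 0.089 for H2-Q7, -0.15 to 0.041 for H2-D1 and -0.36 to 0.019 for B2m. The size factors of DESeq2 moved the median of all genes in the difference from 0.05 to -0.07 and that of the 10 genes from -0.14 to -0.26. With 2 to 3 libraries a group, changes near the size of those named here could be missed, as most 2-fold changes were in the simulated data.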
